A study of Camelus dromedarius with 30 samples.

Results

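OGDH encodes the E1 subunit of the mitochondrial 2-oxoglutarate dehydrogenase complex, and it was followed in kidney RNA of the dromedary (Camelus dromedarius). It is 1 row, ENSCDRG00005002918, of the 22444 genes in the deposited count table, and it was selected on measured values, in that its level lay below control in dehydration and above control in rehydration in the medulla by edgeR's test. The medulla differences between conditions are therefore given as a description, without a test. The cortex differences and the difference between the tissues over the 3 conditions together were not used in the choice and were tested. Their edgeR tests take the spread of OGDH from all 30 libraries, the medulla included, so the choice can bear on that spread. The exact permutation tests in the cortex used cortex libraries only. Cortex and medulla libraries come from the same camels in the same groups, so the cortex tests are not independent of the choice at the level of animals. The samples were 30 libraries of polyA-selected RNA in 6 groups of 5, from the cortex and the medulla of 15 male camels aged 4 to 5 years. Control camels drank freely, dehydrated camels went 20 days without water with food always present, and rehydrated camels had the same 20 days followed by 3 days with free water. All animals were ranch-housed and fed alfalfa hay, and no kidney was perfused, so blood remained in the tissue.

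The 2-oxoglutarate dehydrogenase complex converts 2-oxoglutarate, which enters from isocitrate or from glutamate, to succinyl-CoA, and is a control point of the tricarboxylic acid cycle. OGDH is the thiamine-dependent decarboxylase, DLST transfers the succinyl group, DLD re-oxidises the lipoyl arm, and MRPS36 holds DLD to the core. The kidney spends much mitochondrial ATP on sodium transport, and its proximal tubule also oxidises glutamine-derived 2-oxoglutarate while making ammonia and glucose.

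In the CamDro2 assembly the gene lies on the minus strand of chromosome 7, from 1130574 to 1204569, a span of 73996 bases. Its annotated exons form 25 separate blocks with a summed length of 4961 bases, and no other annotated gene overlaps it. The count is thus a sum over all exons and all transcripts of the gene.

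OGDH was well measured in every library. The libraries held 12634346 to 20005136 counted read pairs, of which 1992 to 8945 fell on OGDH, so that counting error was 1.06 to 2.24% of its level. Levels are given in CPM, read pairs of a gene scaled to a common library size with trimmed-mean (TMM) factors. Per kilobase of exon, the mean level of OGDH was as high as or higher than that of 81 to 91% of the 15376 genes that passed the filter on low counts, depending on the group.

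In the cortex, OGDH stood at 254.6, 240.6, 339.6, 240.8 and 263.6 CPM in the control libraries. The dehydrated libraries held 182.2, 181.5, 187.1, 170.5 and 179.9 CPM, and the rehydrated libraries 215.1, 309.9, 336.0, 237.0 and 280.4 CPM. All 5 dehydrated libraries lay below all control and all rehydrated libraries, and control and rehydrated libraries overlapped over most of their range.

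In the medulla, the control libraries held 183.2, 235.0, 201.5, 218.1 and 213.3 CPM of OGDH. The dehydrated libraries held 144.1, 157.1, 162.8, 145.5 and 155.4 CPM, and the rehydrated libraries 343.5, 349.4, 271.8, 253.2 and 273.8 CPM. The 3 groups formed a ladder without overlap, from dehydration through control to rehydration, as the choice of the gene would have it. Over all tested genes, 6 (0.039%) had such a ladder in the medulla.

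**Figure D1:**
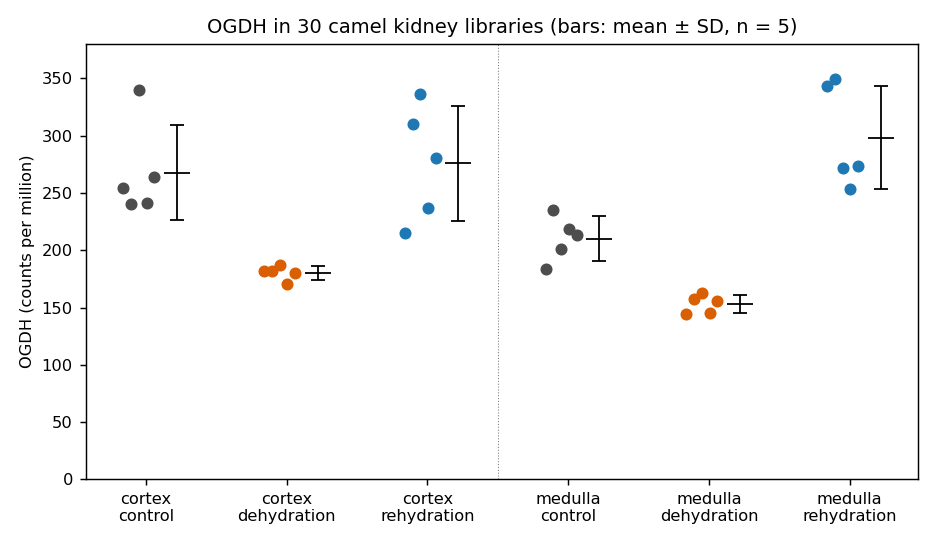
OGDH in CPM (vertical axis, from 0) in each of the 30 libraries, by group of tissue and condition, with the mean and SD of the 5 libraries beside the points. The dehydrated libraries of both tissues sit at 144.1 to 187.1 CPM with little scatter, and the rehydrated libraries of the medulla, from 253.2 CPM upwards, lie above all medulla controls.

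Ordered by mean level, medulla rehydration came first with 298.3 ± 44.7 CPM (SD, n = 5 here and for each group), then cortex rehydration with 275.7 ± 50.0 CPM and cortex control with 267.8 ± 41.3 CPM. These neighbours differed by 22.6 and 7.88 CPM, less than the larger SD of each pair. Medulla control followed with 210.2 ± 19.3 CPM, then cortex dehydration with 180.2 ± 6.05 CPM and medulla dehydration with 153.0 ± 7.97 CPM. Each of these steps was larger than the larger SD of its pair, although the libraries of medulla control and cortex dehydration overlapped.

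The spread between camels was smallest in dehydration. The coefficient of variation of OGDH was 3.36% in the dehydrated cortex and 5.21% in the dehydrated medulla, against 9.20 to 18.1% in the other 4 groups. Among the 2006 genes that averaged 100 CPM or more, the median coefficient of variation was 13.2% in the dehydrated cortex and 18.0% in the dehydrated medulla. In those groups 1.25% and 3.24% of these genes varied less than OGDH. OGDH was chosen by a test that favours genes with little spread, estimated from all 30 libraries. Its low spread is therefore a description that the choice favours, most of all in the medulla. No test of the spread was made.

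OGDH was lower in the dehydrated cortex. Its log2 fold change against control was -0.57 ± 0.12 (SE), a level 0.673 times that of control (95% interval 0.570 to 0.795), with an adjusted p of 0.00945 (edgeR, quasi-likelihood F-test, Benjamini-Hochberg over all tested genes). Genes with an adjusted p under 0.05 are said to be called, and 2.45% of all genes were called in this comparison and 1.17% were called lower. Groups without overlap, with dehydration lower, were found in 2.35% of genes. In an exact permutation test over all arrangements of the 10 libraries, the two-sided p was 0.00794, the smallest these arrangements can give, and 0.0119 after adjustment over the 3 cortex comparisons. The library with the highest control value, cortex control replicate 3, bore on the size, and without it the log2 fold change was -0.47 with an edgeR adjusted p of 0.0298.

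After 3 days of water, OGDH in the cortex was again near control. Against dehydration it rose by 0.61 ± 0.12 on the log2 scale, 1.53-fold (95% interval 1.30 to 1.81, edgeR adjusted p = 0.00635), where 2.32% of all genes were called and 1.07% were called higher. Groups without overlap, with rehydration higher, were found in 1.54% of genes. The exact permutation test again gave 0.00794, and 0.0119 after adjustment. Between rehydrated and control cortex the log2 difference was 0.04 ± 0.12, with a 95% interval of -0.20 to 0.28 (edgeR adjusted p = 0.986, exact permutation p = 0.857). A change of up to about 1.22-fold is inside that interval, so a small difference was not detectable with 5 camels per group. Few genes differed at all in that comparison (0.0845% called). OGDH was 1 of 67 genes (0.436% of those tested) called lower in the cortex in dehydration against control and higher in rehydration against dehydration. These comparisons share the dehydrated libraries.

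In the medulla, OGDH stood above control after rehydration. Dehydration against control gave a log2 fold change of -0.46 ± 0.12 (SE) in the medulla, a level 0.728 times that of control. Rehydration against control gave 0.51 ± 0.12, a level 1.42 times that of control, and rehydration against dehydration gave 0.96 ± 0.12, or 1.95-fold. The corresponding cortex values were -0.57, 0.04 and 0.61. Because the medulla values chose the gene, neither they nor their difference from the cortex values were tested.

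**Figure D2:**
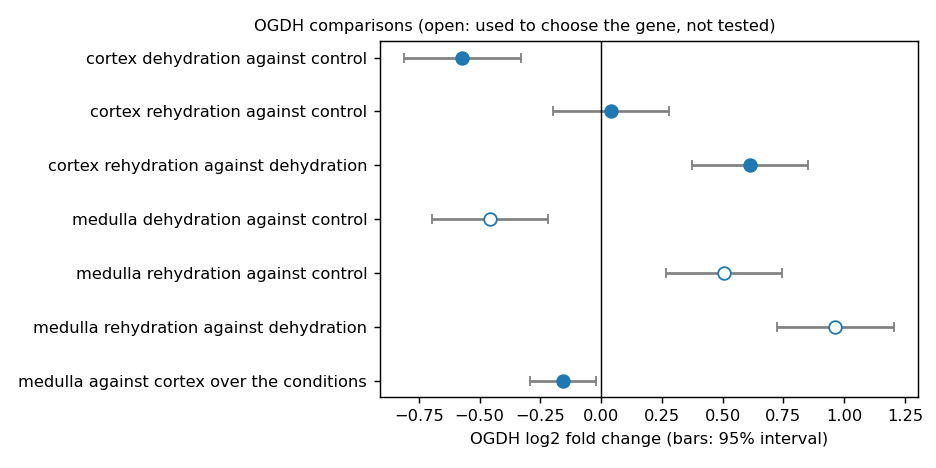
Log2 fold change of OGDH (horizontal axis) in each comparison, with bars for the 95% interval (1.96 SE) from the fit of all 30 libraries. Open points are the medulla comparisons that chose the gene. Both dehydration values lie below 0, at -0.57 and -0.46, whereas rehydration against control lies at 0.04 in the cortex and at 0.51 in the medulla.

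OGDH met the criterion in the medulla by a small margin. Its adjusted p, which served only to choose it, was 0.0489 for dehydration against control and 0.0447 for rehydration against control. Of all tested genes, 2 (0.013%) were called in both directions, against 1.68% called in dehydration and 0.813% in rehydration in either direction. The other was ENSCDRG00005022079, which has no symbol in the lists used, with log2 fold changes of -1.35 and 1.12 and a mean of 7.82 CPM over the medulla. The nearest genes outside were ENSCDRG00005018240, with log2 fold changes of -0.38 and 0.58 and a larger adjusted p of 0.0983, and ENSCDRG00005007493, with -0.81 and 0.97 and a larger adjusted p of 0.142.

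Over the 3 conditions together, OGDH was slightly lower in the medulla than in the cortex, by -0.16 ± 0.07 on the log2 scale (edgeR adjusted p = 0.0427). Tissue differences were general, with 79.0% of all genes called and 36.6% of all genes called lower in the medulla, and the median log2 difference over all genes was 0.10. The call was lost with the animal as a block (log2 difference -0.15, adjusted p = 0.0858) and under most other settings. By condition, the log2 difference of medulla from cortex was -0.34 in control, -0.24 in dehydration and 0.12 in rehydration. The medulla library was the lower one in all 5 control camels and all 5 dehydrated camels, and the higher one in 3 of the 5 rehydrated camels as their labels pair them. The choice of OGDH took the dehydrated medulla as low and the rehydrated medulla as high. It thus bears on these values by condition, which are a description and were not tested.

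Whole tissue was sequenced, so fewer cells of a type and less RNA per cell cannot be told apart. Identifiers were found for 24 of 65 cell type markers, of which 23 were tested, and none of these 23 was at 0 counts in any library. The identifiers come from the study's own lists of changed genes (12 of the 24) or changed proteins (12). The measured markers are therefore a choice made on these samples and no independent evidence on cell types. ADIPOQ, an adipocyte hormone, did not pass the filter on low counts, and no leukocyte marker had an identifier. SLC22A8, an organic anion transporter of the proximal tubule in the cortex, had a log2 difference of -5.27 between medulla and cortex, and UMOD, the uromodulin of the thick ascending limb, one of 1.91. Of the other measured thick ascending limb markers, EGF was higher in the medulla by 1.79 and the claudin CLDN10 went the other way, with a log2 difference of -0.85 (edgeR adjusted p = 2.08e-09). SYNPO, the single measured podocyte marker, went the other way from a cortical cell, with a log2 difference of 2.19, at 0.685 to 23.3 CPM over all libraries.

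Proximal tubule markers were lower in the dehydrated than in the control cortex, as was OGDH. Within a group, how the marker sum ran with OGDH differed between the groups. The 2 measured of 9, SLC22A8 and the inositol oxygenase MIOX, summed to 982.9 to 2487 CPM in control libraries, 284.3 to 826.4 CPM in dehydrated libraries and 1534 to 2485 CPM in rehydrated libraries. Neither gene was called in dehydration against control, with log2 fold changes of -1.61 and -1.86 (edgeR adjusted p = 0.16 and 0.12). Control replicate 3 had the lowest sum of its group, 982.9 CPM, and its highest OGDH, 339.6 CPM. In dehydration, replicate 3 had the lowest sum (284.3 CPM) with the highest OGDH (187.1 CPM), and replicate 4 the highest sum (826.4 CPM) with the lowest OGDH (170.5 CPM). In rehydration, replicates 1 and 4 had the 2 lowest sums (1714 and 1534 CPM) with the 2 lowest OGDH levels (215.1 and 237.0 CPM). Over the 15 cortex libraries, Pearson's r with OGDH in log2 CPM was 0.59 for SLC22A8 and 0.68 for MIOX. The 3 measured of 5 endothelial markers summed to 218.9 to 268.8 CPM in control and 356.4 to 423.5 CPM in dehydration, and PECAM1, an endothelial adhesion molecule, rose in the dehydrated cortex by 0.74 (edgeR adjusted p = 0.0043). The levels of collecting duct markers in the cortex were as follows. The 4 measured of 7 principal cell markers summed to 1061 to 1397 CPM in control, 762.9 to 1011 CPM in dehydration and 897 to 1204 CPM in rehydration. ATP6V1B1, a proton pump subunit and the measured 1 of 5 intercalated cell markers, was at 348.7 to 435.5 CPM, 266.6 to 323.7 CPM and 283.6 to 445.1 CPM in the same groups, without overlap between control and dehydration in either case. Of all single genes, 2.35% were lower in dehydration without overlap. Among the principal cell markers, the sodium channel subunit SCNN1A had -0.59 and the enzyme HSD11B2 -0.63 in dehydration (edgeR adjusted p = 0.139 and 0.175). The water channel AQP2 went the other way, with 0.22 (adjusted p = 0.745), and none of these 3 was called. ATP6V1B1 was not called in the cortex (log2 fold change -0.41 in dehydration, edgeR adjusted p = 0.172). The water channel AQP3 rose in the dehydrated cortex by 2.36 on the log2 scale (edgeR adjusted p = 0.0166). The 2 measured distal convoluted tubule markers went opposite ways there. PVALB rose by 2.21 (adjusted p = 0.00156), from a mean of 0.967 CPM in control to 4.55 CPM in dehydration. CALB1 had -1.38 (adjusted p = 0.189, not called), with means of 1585 and 609.1 CPM. In rehydration against dehydration AQP3 fell by 2.38 (adjusted p = 0.0169) and PVALB by 1.36 (adjusted p = 0.0266). The part of these markers in the cortex result was not tested.

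In the medulla the 2 proximal tubule markers summed to 15.2 to 235.3 CPM in control, 2.35 to 73.6 CPM in dehydration and 35.95 to 140.9 CPM in rehydration, and OGDH was still at 144.1 to 349.4 CPM there.

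**Figure D3:**
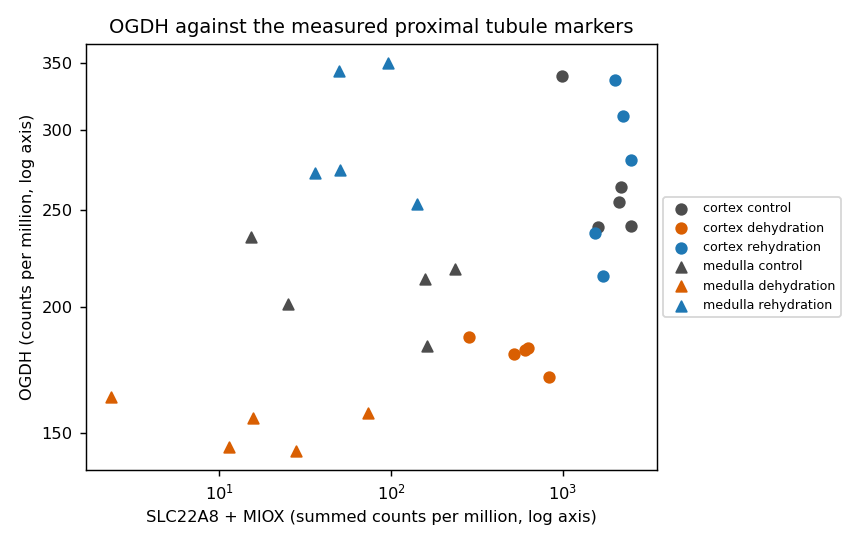
OGDH (vertical log axis, CPM) against the summed CPM of SLC22A8 and MIOX (horizontal log axis) in each library, with circles for cortex and triangles for medulla. The cortex dehydration libraries lie left of and below the other cortex libraries, and the medulla libraries span the range of OGDH from 144.1 to 349.4 CPM with marker sums of at most 235.3 CPM.

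In the medulla, 2 collecting duct markers were lower in dehydration and higher again in rehydration, as was OGDH. ATP6V1B1 was at 219.5 to 288.2 CPM in control, 109.5 to 167.9 CPM in dehydration and 168.4 to 379.1 CPM in rehydration. It fell in dehydration by 0.82 on the log2 scale (edgeR adjusted p = 0.0043) and was higher by 1.07 in rehydration against dehydration (adjusted p = 0.0002). HSD11B2, which shields the mineralocorticoid receptor from cortisol in the same segments, had log2 fold changes of -1.07 (adjusted p = 0.015) and 1.63 (adjusted p = 0.00022). In rehydration against control, ATP6V1B1 had 0.25 and HSD11B2 had 0.56 (edgeR adjusted p = 0.492 and 0.248), neither called. SCNN1A, the alpha subunit of the epithelial sodium channel, fell in dehydration by 0.89 (adjusted p = 0.023), and the water channels AQP2 and AQP3 had values of 0.81 and 1.36, not called. The 4 measured of 7 principal cell markers together summed to 663.2 to 1270 CPM in control, 696.6 to 1497 CPM in dehydration and 919.6 to 1171 CPM in rehydration, with overlap throughout. The part of these markers in the OGDH levels was not tested.

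The markers of the other types gave sums that overlapped between the conditions of a tissue. In the medulla the 3 thick ascending limb markers summed to 18240 to 22610 CPM in control, 13570 to 20940 CPM in dehydration and 14790 to 24120 CPM in rehydration. In the cortex they summed to 4188 to 5936 CPM, 5614 to 9003 CPM and 4144 to 6135 CPM in the same conditions. UMOD had a log2 fold change of 0.73 in the dehydrated cortex (edgeR adjusted p = 0.0843), CLDN10 had -0.39 and EGF -0.25, none of them called. The adipocyte marker FABP4 was at 0.296 to 9.14 CPM in all libraries.

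The other measured subunits of the complex had no positive value against control in the rehydrated medulla. DLD, the E3 subunit, was at 349.2, 270.1 and 381.9 CPM on average in control, dehydrated and rehydrated cortex, and at 297.3, 252.3 and 251.8 CPM in the same groups of the medulla. It rose in the cortex in rehydration against dehydration by 0.50 ± 0.13 (SE) on the log2 scale (edgeR adjusted p = 0.0375). The call held under 7 of 10 alternatives and in 21 of 30 omissions of a single library (adjusted p up to 0.105), and was lost without any of the 5 cortex dehydration libraries or any of cortex rehydration replicates 1 to 4. Its medulla value in rehydration against control was -0.24 ± 0.13 (adjusted p = 0.407), where that of OGDH was 0.51. The difference between these genes was not tested.

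MRPS36, the adaptor that holds DLD to the core, was called in the same cortex comparisons as OGDH. It stood at 73.99, 85.77, 107.3, 116.6 and 122.3 CPM in control cortex and at 68.06, 73.93, 59.43, 67.64 and 59.02 CPM in dehydrated cortex. The lowest control library was just above the highest dehydrated one (dehydration lower without overlap in 2.35% of all genes), and the log2 fold change was -0.63 ± 0.13 (edgeR adjusted p = 0.00882). In rehydration it was higher than in dehydration by 0.53 ± 0.13 (adjusted p = 0.0278), a call that held under 9 of 10 alternatives and in 22 of 30 single omissions (adjusted p up to 0.0863). It was lost without cortex dehydration replicate 1, 3, 4 or 5 or cortex rehydration replicate 1, 2, 3 or 4. In the medulla its log2 fold changes were -0.47 in dehydration and -0.06 in rehydration against control, neither of them called. DLST, the E2 subunit, has no identifier in the lists used and was not analysed here.

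Per kilobase of exon, OGDH was the lowest of the 3 measured parts of the complex in every group. In control cortex it stood at 54.0 CPM per kb, against 163.8 for DLD and 187.4 for MRPS36. In rehydrated medulla the values were 60.1, 118.1 and 104.5 CPM per kb.

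The related E1 enzymes differed from OGDH and from each other. DHTKD1, which acts on 2-oxoadipate in lysine breakdown, was at 35.5 CPM per kb in control cortex and 12.7 in control medulla. It rose in the cortex in rehydration against dehydration by 0.76 ± 0.20 on the log2 scale (edgeR adjusted p = 0.0368), and its dehydration value was -0.69 ± 0.20 (adjusted p = 0.0588). The call held under 9 of 10 alternatives and in 22 of 30 single omissions (adjusted p up to 0.111), and was lost without any cortex dehydration library or without cortex rehydration replicate 1, 2 or 4. OGDHL, the close paralogue of OGDH, was higher in the medulla by 4.42 on the log2 scale (adjusted p = 8.8e-09), and its cortex libraries held 0 to 4.82 CPM. In control medulla OGDHL held 27.87, 10.20, 47.14, 44.78 and 72.84 CPM, and in dehydrated medulla 12.31, 11.57, 1.79, 0.039 and 2.58 CPM. In rehydrated medulla it held 26.59, 13.59, 3.75, 61.49 and 47.71 CPM, a range that covers most of the control values. The log2 fold changes were -2.85 ± 0.68 in dehydration against control (adjusted p = 0.0227) and 2.44 ± 0.68 in rehydration against dehydration (adjusted p = 0.0357). Both calls were lost with DESeq2 and with the medulla libraries alone, and each held under 5 of 10 alternatives. At its highest OGDHL reached 10.2 CPM per kb as a group mean, below the 30.8 of OGDH in its lowest group. Reads that fit both paralogues cannot be assigned between them, and how many there are was not tested.

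For the wider pathway, 28 of 72 genes on 7 lists had an identifier, and all 28 were tested. The identifiers come from the study's own lists of changed genes (16 of the 28) or changed proteins (12), so the members are a choice made on these samples and are no independent evidence of a direction. In the dehydrated cortex 3 of 28 were called lower (1.17% of all genes) and 0 higher, and 24 had a negative log2 fold change (49.5% of all genes). Their median was -0.37 against 0.00 over all tested genes. In rehydration against dehydration 7 of 28 were called higher in the cortex (1.07% of all genes), with a median of 0.38 against 0.03, and in rehydration against control 0 were called with edgeR and 1 with DESeq2. In the dehydrated medulla 3 were called lower (1.16% of all genes; median -0.31 against 0.01) and 25 had a negative value (48.6% of all genes). In rehydration against dehydration 3 were called higher in the medulla (median 0.26 against 0.01), where 3.67% of all genes were called and 2.24% were called higher. In medulla rehydration against control 0 were called with edgeR and 2 with DESeq2, and the median was -0.18 against 0.01, with 22 of 28 negative (48.9% of all genes).

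The counts were sensitive to the method and to single libraries. The 3 in the dehydrated cortex became 10 with DESeq2, and 5 to 7 without cortex control replicate 3, cortex rehydration replicate 1 or 2, medulla control replicate 2 or medulla rehydration replicate 3. The 7 in cortex rehydration against dehydration became 1 to 3 without any of the 5 cortex dehydration libraries or without any of cortex rehydration replicates 1 to 4. In dehydrated medulla the 3 became 1 without medulla control replicate 3 or 5 or medulla dehydration replicate 3 or 4. In medulla rehydration against dehydration they became 0 or 1 without cortex control replicate 4, medulla dehydration replicate 4 or medulla rehydration replicate 1 or 5.

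**Figure D4:**
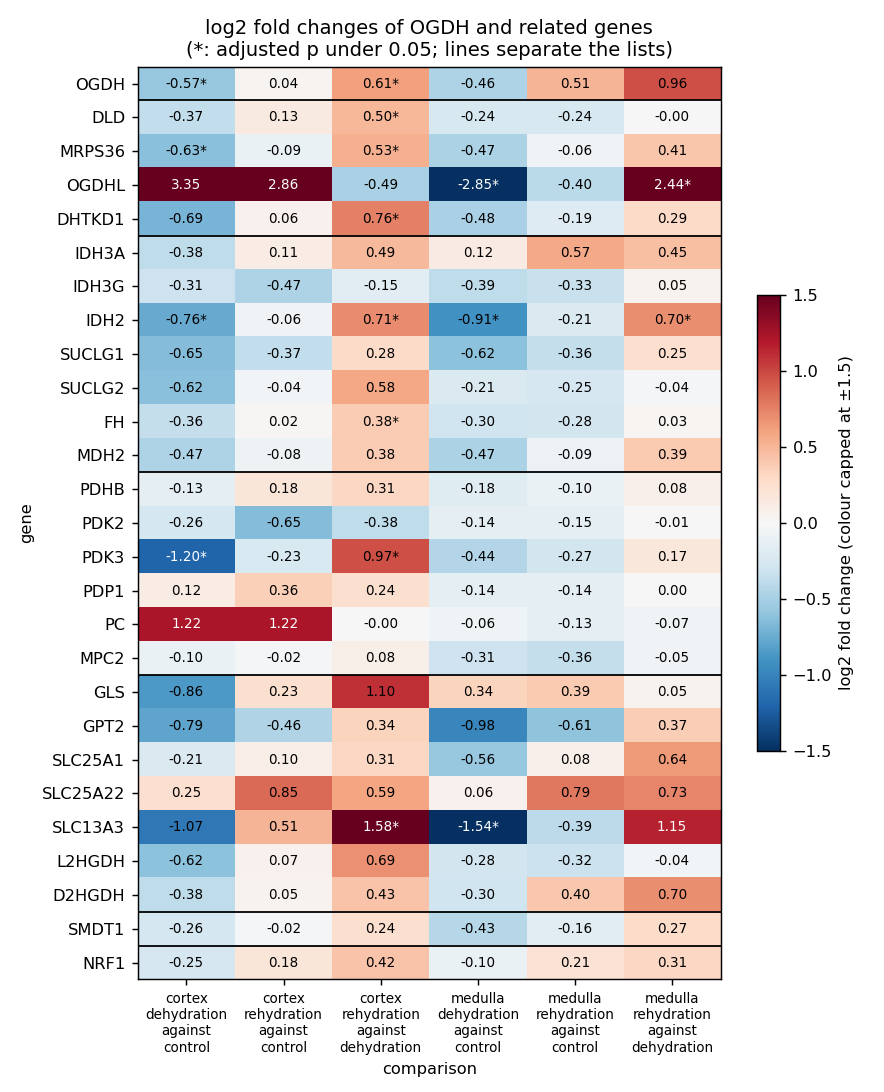
Log2 fold changes (numbers and colour) of OGDH and 26 of the 28 related genes with an identifier (rows, by list) in the 6 comparisons of conditions (columns), with an asterisk at an edgeR adjusted p under 0.05. The medulla values of OGDH carry no asterisk because they were not tested. IDH2 is called in 4 of the columns, and in medulla rehydration against control none of the genes shown is called.

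Among the tricarboxylic acid cycle genes, IDH2 was the one called lower in dehydration in both tissues. IDH2, the mitochondrial NADP-dependent isocitrate dehydrogenase, makes 2-oxoglutarate. It stood at 656.2, 594.6, 716.5, 823.6 and 966.5 CPM in control cortex and at 427.1, 429.1, 463.3, 434.8 and 462.6 CPM in dehydrated cortex. In the medulla it stood at 881.8, 1032, 883.8, 680.1 and 817.0 CPM in control and at 390.4, 434.4, 523.1, 418.5 and 513.2 CPM in dehydration. In both tissues all dehydrated libraries lay below all control libraries, which held for 2.35% of all genes in the cortex and 2.04% in the medulla. IDH2 fell by 0.76 ± 0.17 on the log2 scale in the cortex (edgeR adjusted p = 0.0113) and by 0.91 ± 0.17 in the medulla (adjusted p = 0.00312). It was higher in rehydration than in dehydration by 0.71 in the cortex (adjusted p = 0.0236) and by 0.70 in the medulla (adjusted p = 0.0181). In single omissions the first of these calls was lost without cortex dehydration replicate 1 or 2 or cortex rehydration replicate 2 or 3 (adjusted p up to 0.0822), and the second without medulla dehydration replicate 4 or medulla rehydration replicate 1 (up to 0.0693). Against control the rehydrated values were -0.06 in the cortex and -0.21 in the medulla, where OGDH stood at 0.51. Of the 8 measured cycle genes, 7 had a negative value in that medulla comparison (48.9% of all genes). IDH3A had 0.57 ± 0.15 (edgeR adjusted p = 0.0627, not called), so a positive value there was not particular to OGDH.

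Fumarase, FH, rose in the cortex in rehydration against dehydration by 0.38 ± 0.10 (edgeR adjusted p = 0.0479). The call lay close to the threshold and was lost under most omissions of a single library. Of the 8 measured cycle genes, 8 had a negative log2 fold change in the dehydrated cortex (49.5% of all genes), with a median of -0.42 against 0.00 over all genes. In the dehydrated medulla 7 were negative (48.6% of all genes), with a median of -0.41 against 0.01. IDH2 was the single cycle gene called in each.

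At the entry of pyruvate, PDK3, a kinase that switches off pyruvate dehydrogenase, fell in the dehydrated cortex by 1.20 ± 0.16 on the log2 scale (edgeR adjusted p = 0.000116). It held 306.9, 285.0, 163.7, 312.7 and 254.9 CPM in control and 126.1, 102.7, 85.35, 133.6 and 129.0 CPM in dehydration, with no overlap (dehydration lower without overlap in 2.35% of all genes). In rehydration it was higher than in dehydration by 0.97 ± 0.16 (adjusted p = 0.00158). In the medulla its values in the same comparisons were -0.44 and 0.17, neither called. Of the 6 measured genes of this list, PDK3 was the single one called.

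Among genes that supply or carry 2-oxoglutarate and glutamate, SLC13A3, a sodium-coupled carrier of dicarboxylates including 2-oxoglutarate on the basolateral side of the proximal tubule, was called. It was higher in rehydrated than in dehydrated cortex by 1.58 ± 0.41 on the log2 scale (edgeR adjusted p = 0.0335) and fell in the dehydrated medulla by 1.54 ± 0.41 (adjusted p = 0.0491). The first call was lost without cortex dehydration replicate 1, 2, 3 or 4 or cortex rehydration replicate 1, 2, 4 or 5 (adjusted p up to 0.0997), and the second in all but 4 of the 30 single omissions. The other 6 measured genes of the list were not called in any comparison of conditions. In medulla rehydration against control 3 of the 7 measured were negative (48.9% of all genes), and SLC25A22 had 0.79 ± 0.25 (edgeR adjusted p = 0.122). Neither of the measured genes of mitochondrial calcium uptake was called, and calcium is an activator of the complex. SMDT1, an essential part of the mitochondrial calcium channel, had values of -0.26 in the dehydrated cortex and -0.43 in the dehydrated medulla. NRF1, a regulator of mitochondrial genes, had -0.25 and -0.10. No gene of thiamine supply had an identifier.

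The genes whose levels ran most like that of OGDH were ranked by Pearson's r in log2 CPM over the 15 libraries of a tissue, among the 13799 other genes whose mean reached 1 CPM. The libraries of a group share their condition, so r describes likeness and carries no test. In the medulla, 65 genes (0.471%) had r above 0.8, and the median over all genes was -0.01. The highest was KAZN, which encodes kazrin, a protein of cell junctions, with r = 0.973. KAZN held 8.22 to 11.15 CPM in control, 5.38 to 7.73 CPM in dehydration and 12.94 to 20.16 CPM in rehydration, the same ladder without overlap as OGDH at a far lower level. Also among the 5 leading genes with a symbol were AARS2, the mitochondrial alanyl-tRNA synthetase (r = 0.859), FAM160A2 (0.845) and OPLAH, which releases glutamate from 5-oxoproline (0.837). These 4 ranked 1, 12, 16 and 19 among all genes.

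Removing the group means lowered the likeness in the medulla. With them removed, r stayed at 0.837 for KAZN and dropped to between 0.283 and 0.301 for the other 3. In the cortex the same genes had an r of 0.448 (KAZN), 0.362 (AARS2), 0.866 (FAM160A2) and 0.665 (OPLAH).

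In the cortex, 78 genes (0.565%) had r above 0.8. The highest was PCYT2, which makes CDP-ethanolamine for phosphatidylethanolamine (r = 0.919), followed by the vitamin B6 kinase PDXK (0.910), TMEM25 (0.902), the G protein-coupled receptor GPR35 (0.897) and TRIM45 (0.885). They ranked 1, 2, 3, 4 and 6 among all genes. Their values with group means removed were still 0.741 to 0.902, so that in the cortex they varied with OGDH also between camels of 1 group. In all, 729 of the 13799 genes had an r above 0.8 with group means removed in the cortex, and 7 in the medulla. Varying with OGDH within the groups of the cortex was thus not particular to the genes named. Cortex control replicate 3 and cortex rehydration replicate 3 stood apart from their groups over all genes. Without them, 446 genes remained above 0.8 in the cortex. PCYT2 and PDXK also followed OGDH in the medulla (r = 0.830 and 0.696), and TMEM25 did not (0.031).

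**Figure D5:**
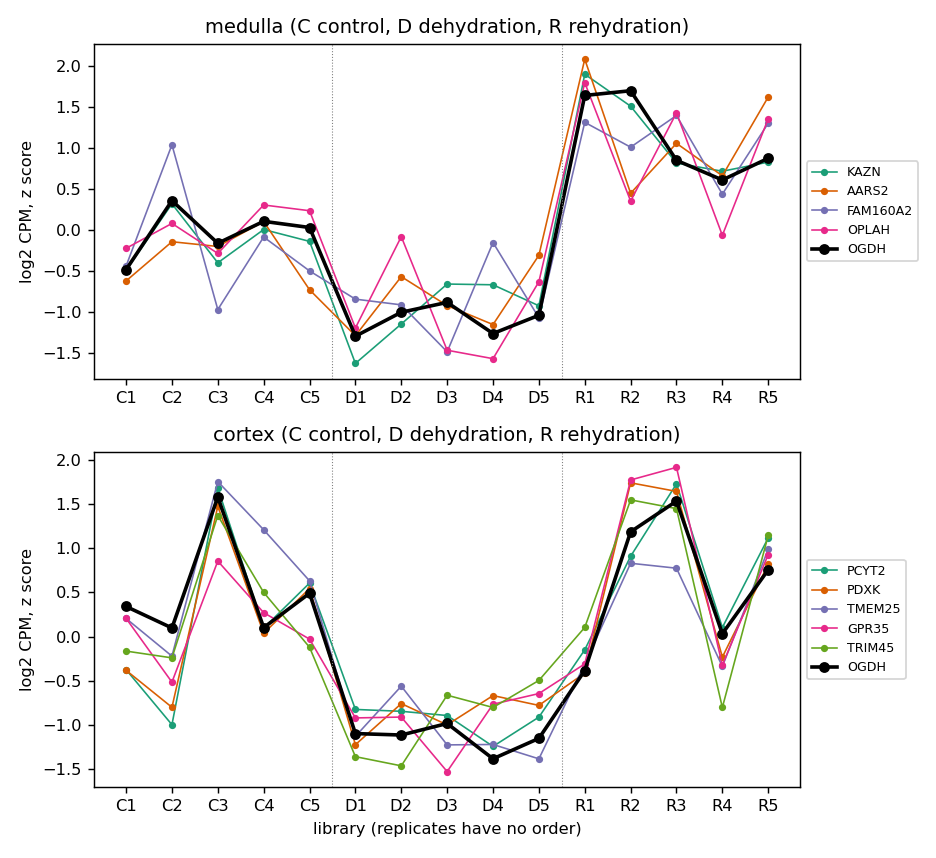
Log2 CPM of OGDH (black) and of 4 of the 5 genes with a symbol most like it in the medulla (upper panel) and the 5 in the cortex (lower panel), as z scores over the 15 libraries of the tissue (vertical axis), by library (horizontal axis). In the medulla the lines step between the groups, and in the cortex they also move together within the control and rehydrated groups, with control replicate 3 and rehydration replicate 3 high.

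Of the neighbouring genes on chromosome 7, none was called in the direction of OGDH. Few genes are: 1.17% of all genes were called lower in dehydration in the cortex and 1.16% in the medulla. In rehydration against dehydration 1.07% and 2.24% were called higher, so the absence of calls among 4 genes says little about the locus. On the side of higher coordinates lie TMED4, of the p24 family of vesicle cargo proteins, at a distance of 13183 bases, and ENSCDRG00005003144. On the other side lie ENSCDRG00005002816, at a distance of 20343 bases, and ENSCDRG00005002790. TMED4 had log2 fold changes of 0.45 in the dehydrated cortex (edgeR adjusted p = 0.056) and -0.51 in cortex rehydration against dehydration (adjusted p = 0.0287), both opposite in sign to OGDH, and its r with OGDH was -0.72 in the cortex. None of the other 3 was called in any comparison of conditions, and their log2 fold changes in dehydration ranged from -0.37 to 0.30 over both tissues. ENSCDRG00005002816 had the highest r of the 4 with OGDH, 0.60 in the medulla, and -0.08 in the cortex.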

How the data were processed

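Counts of read pairs per gene for 30 libraries were analysed. Per the file header and the study's methods, the authors trimmed reads with BBDuk, aligned them to CamDro2 and counted fragments on the reverse strand with featureCounts 1.6.2 and the genes of Ensembl release 100. The methods name STAR and the alignment names say Rsubread, so the aligner is not settled. The deposited counts carry no normalization, and the deposited table also gives exon lengths, used for CPM per kb.

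The 15376 genes passing filterByExpr (minimum count 10, minimum total 15) were fitted in edgeR 4.0.16 under R 4.3.3, with TMM scaling, 6 groups and quasi-likelihood tests. P-values were adjusted by Benjamini-Hochberg over all tested genes, and the threshold was 0.05. A prior count of 2 entered log2 CPM, and intervals are 1.96 SE on each side. For the 3 cortex comparisons an exact permutation test was added. The script was tested on simulated data. The common biological coefficient of variation over all genes was 34.0%. For OGDH the coefficient of variation between camels was 3.36 to 18.1% by group, against a counting error of 1.06 to 2.24%. Differences between camels thus exceed counting error for OGDH, least so in the dehydrated cortex, and precision was set mainly by the 5 camels per group. Libraries of a group come from different camels, and no pair of replicates agreed within sampling noise.

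OGDH, the pathway and marker lists and the tests were chosen with earlier results of these data known. Named were OGDH, the measured members of the complex list, in each other pathway list up to 4 members called in any comparison of conditions (or the 2 most expressed where none was called), the 5 genes with a symbol most like OGDH in each tissue, the genes sharing its medulla pattern, and 2 neighbours on each side. Markers, the genes just outside the criterion, IDH3A and SLC25A22 were named for their relation to a result. Symbols were paired with 3652 identifiers through the study's lists of changed genes and proteins. Some genes that this rule names are not reported here. No sequence of the gene was used here.

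The labels give the tissues of 1 camel the same number. Same-numbered cortex and medulla libraries deviated from their group means with a mean correlation across genes of 0.139 in control, 0.0934 in dehydrated and 0.0487 in rehydrated camels, and in the last group the numbers in the library names, which differ from those of the labels, gave 0.351 over 4 pairs. Alternatives were DESeq2 1.42.0, limma-voom (limma 3.58.1), RLE scaling, other filters, each tissue alone, replicate or animal blocks, the RNA integrity number (RIN) of the study's supplement as a covariate, an adjusted p under 0.01, and each library left out.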

Additional observations from a re-analysis of the deposited data

Results flagged for a closer look

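In the cortex of control camels, OGDH stood at 339.6 CPM in replicate 3 and at 240.6 to 263.6 CPM in the other 4 libraries. The gap to the nearest library was 0.767 of the group's range, above Dixon's 95% critical value of 0.71 for 5 samples. Such a gap arises by chance in about 1 in 20 groups, and 6 groups were examined. The same library was the farthest of all 30 from its group mean over all genes, and it held the lowest DLD (260.1 CPM), DHTKD1 (101.6 CPM) and PDK3 (163.7 CPM) of the control cortex. Its summed proximal tubule markers, at 982.9 CPM, were also the lowest of that group.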

How the results depend on the processing

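The calls of OGDH in the cortex held throughout. For dehydration against control, the log2 fold change ran from -0.61 to -0.47 over all alternatives and single omissions, with adjusted p up to 0.0386, and for rehydration against dehydration it ran from 0.53 to 0.69, with adjusted p up to 0.0322. Both of these highest values came from the edgeR fit of the cortex libraries alone, which takes no spread from the medulla. Rehydration against control, not called, ran from -0.039 without cortex rehydration replicate 3 to 0.14 without cortex control replicate 3. It turned negative also without cortex rehydration replicate 2 (-0.004). The 3 medulla values kept their signs and moved by less than 1 SD between replicates. The medulla against cortex difference of -0.16 lost its call with DESeq2 (-0.087), RLE scaling (-0.088) and no filter (-0.14). RIN as a covariate (-0.12) and keeping only genes that averaged 1 CPM or more (-0.15) lost it too. So did each labelled camel as a block (-0.15) and the block with rehydrated camels paired by library number (-0.17). With the block in control and dehydrated camels only, the difference was -0.29. This fit leaves out the rehydrated medulla, which the choice of OGDH took as high, and keeps the dehydrated medulla, which it took as low. The choice can thus push that value down, so it is given without a test. Omitting single libraries, the difference over all conditions ran from -0.18 to -0.12, with adjusted p from 0.0166 to 0.0904. The call was lost in 16 of the 30 omissions. The 2 pattern genes became 3 with DESeq2. They became 1 with limma-voom, RLE scaling, no filter, a mean of at least 1 CPM, each tissue alone and RIN. With an adjusted p under 0.01 or legacy quasi-dispersions they became 0. In the omissions they numbered 0 to 2, and in 7 omissions OGDH itself kept both calls.

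The pathway counts moved more. In cortex dehydration the 3 genes called became 10 with DESeq2, 5 with RLE scaling or a mean of at least 1 CPM, 6 in the cortex alone and 3 to 7 in single omissions. In cortex rehydration against control the 0 became 1 with DESeq2 or RLE scaling, and in cortex rehydration against dehydration the 7 became 11 with DESeq2, 4 with limma-voom or the cortex alone, 1 under an adjusted p of 0.01 and 1 to 7 in omissions. In medulla dehydration the 3 became 6 with DESeq2, 1 in the medulla alone, with RIN, under 0.01 or with legacy quasi-dispersions, and 1 to 4 in omissions. In medulla rehydration against control the 0 became 2 with DESeq2, 1 with limma-voom and 0 to 1 in omissions (1 without cortex control replicate 3 or cortex rehydration replicate 5). In medulla rehydration against dehydration the 3 became 1 in the medulla alone, with legacy quasi-dispersions and with the replicate number as a block, 0 under 0.01 and 0 to 4 in omissions. That block changed no call of OGDH and no other pathway count by over 1.5 times. Added after seeing the data, the omission of the 3 libraries farthest from their group means (cortex control, cortex rehydration and medulla rehydration replicate 3) gave 7 for the first count, a tissue difference of -0.087 (adjusted p = 0.224), and OGDH cortex values of -0.47 in dehydration and 0.53 in rehydration against dehydration, both called. The legacy, library-number and control-and-dehydrated fits were also added then. The cause of these changes was not tested.

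Between conditions, camels share only a number: same-numbered libraries of the groups of a tissue had mean correlations of their deviations from -0.0547 to 0.207. Counting error was at most 2.24% of the OGDH level, below the spread between the camels of each group.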
